A study of Mus musculus with 6 samples.

Results

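The integrated stress response and the unfolded protein response were examined in mouse embryonic fibroblast clones as a set of 40 named genes, out of 32015 genes in the deposited counts. The genes were chosen by name for their known roles, and estimated counts were summed over all transcripts of each gene. They fell into 4 sub-lists: 13 stress transcription factors and signalling genes, 13 genes of amino acid synthesis, transport and charging, 4 ER stress sensors and their effector Xbp1 (ER, endoplasmic reticulum), and 10 ER chaperone and quality control genes. Poly(A) RNA from 6 clones was sequenced, 3 clones a genotype. The cells came from Macf1flox/+ and Macf1flox/flox mice, had been immortalized with the SV40 large T antigen, and were all exposed to AAV8-CMV-Cre, an adeno-associated virus that expresses Cre recombinase from a viral promoter. Colonies were then raised from single cells. The Macf1flox/+ cells gave heterozygous control clones (Macf1-/+, called het) and the Macf1flox/flox cells gave knockout clones (Macf1-/-). The control clones therefore also lack 1 Macf1 allele, and no clone without recombination was compared. RNA was taken from confluent cultures, and no stress treatment is given in the labels. Clones are numbered 1 to 3 within a genotype, in the order B5, C6 and F1 for het and A4, A5 and A6 for knockout. Each library comes from 1 clone, and the labels do not say whether the clones of a genotype came from separate embryos, so the p-values measure the spread between clones.

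When translation initiation factor eIF2 is phosphorylated by a stress-sensing kinase, bulk protein synthesis slows while the mRNA of the transcription factor Atf4 is translated more. ATF4 protein, often paired with a C/EBP family member, turns on genes for amino acid synthesis, amino acid uptake and tRNA charging, and, when stress persists, further factors such as Ddit3 (CHOP) and Trib3. The unfolded protein response starts in the ER membrane from the sensors PERK (Eif2ak3), which is itself an eIF2 kinase, IRE1 (Ern1), which splices the Xbp1 mRNA, and ATF6, which is cut free to enter the nucleus and turn on ER chaperone genes. PERK thus joins the pathways, and the amino acid genes and the chaperone genes can be read as separate outputs. Fibroblasts secrete large amounts of collagen and other matrix proteins through the ER. ATF4 activity is regulated largely after transcription, so its mRNA level is not a measure of it.

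Macf1, the targeted gene, had 656 ± 66.6 CPM (counts scaled to the library size; SD, n = 3) in the het against 331 ± 27.9 CPM in the knockout clones (log2 change -0.99, SE 0.13, adjusted p = 0.00308, edgeR's quasi-likelihood test with Benjamini-Hochberg adjustment over all tested genes). The libraries held 15661342 to 18209673 estimated counts. The correlation of log2 CPM was 0.974 to 0.991 among knockout clones, 0.940 to 0.981 among het clones and 0.853 to 0.870 between genotypes, and het clone 1 stood somewhat apart from the other het clones (0.940 and 0.947, against 0.981 between these). Markers of several cell types moved with the genotype. Of 10 fibroblast markers, 7 were tested and 5 were lower in knockout clones, with a summed level of 9012 to 12516 CPM in het and 5606 to 8130 CPM in knockout clones. Col1a1, which encodes a collagen chain, had 1019 to 1499 CPM in het and 2.69 to 13.8 CPM in knockout clones, while the fibroblast markers Thy1 and Lum were under 1 CPM in every clone and Vim, an intermediate filament gene, did not pass (log2 change 0.24, adjusted p = 0.612). Summed epithelial markers, nearly all Krt19, were 16.1 to 56.7 CPM in het and 0.431 to 1.03 CPM in knockout clones, with Epcam, Cdh1, Krt8, Krt18 and Cldn4 under 1 CPM throughout. Of 5 neural and glial markers, Tubb3 (log2 change -4.18, adjusted p = 0.00636) and Map2 (-1.29, adjusted p = 0.0316) were lower, with a summed level of 37.8 to 65.8 CPM in het and 16.5 to 22.0 CPM in knockout clones and with Sox10 and Gfap under 1 CPM throughout. Of 5 muscle markers, Des was higher (1.48, adjusted p = 0.0411), with a sum of 1.69 to 2.59 CPM against 2.63 to 4.86 CPM and Myod1 and Myog at 0. None of the 3 tested endothelial and macrophage markers passed by edgeR, and their unadjusted p-values were 0.322 to 0.699. The part of these differences in the results was not tested. In bulk RNA, fewer cells expressing a gene and less RNA per cell cannot be told apart.

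Of the 40 genes, 39 passed edgeR's filter on low counts. At an adjusted p under 0.05, 17 were lower and 3 were higher in knockout clones, and 19 did not pass. Over all 12732 genes tested, 28.2% passed in either direction, 14.3% as lower and 13.9% as higher. The median log2 change (fitted fold change, knockout over het) was -0.57 over the 39 genes and -0.00 over all genes tested. Het and knockout clones did not overlap for 27 of the 39 genes, with all knockout clones lower for 22 and all higher for 5. Among all tested genes that held for 23.7% with knockout lower and 23.8% with knockout higher. The lower genes were unevenly divided: 8 of 12 tested stress factor and signalling genes and 7 of 13 amino acid genes were lower, against 1 of 4 sensors and 1 of 10 ER chaperone genes. Median log2 changes were -1.04, -0.82, 0.41 and 0.15 in that order. Vldlr passed the filter on low counts through its het libraries alone, and without it the stress factor and signalling median was -0.80, with 7 of 11 genes lower. Over the whole set without Vldlr, 16 of 38 genes were lower (42.1%, median -0.56). The number of lower genes was 9 without knockout clone 2 and 12 to 15 without any other clone, and the number of higher genes was 1 without knockout clone 1 or knockout clone 2. Over all genes tested, the number of lower genes went from 1815 to 864 without knockout clone 2.

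**Figure D1:**
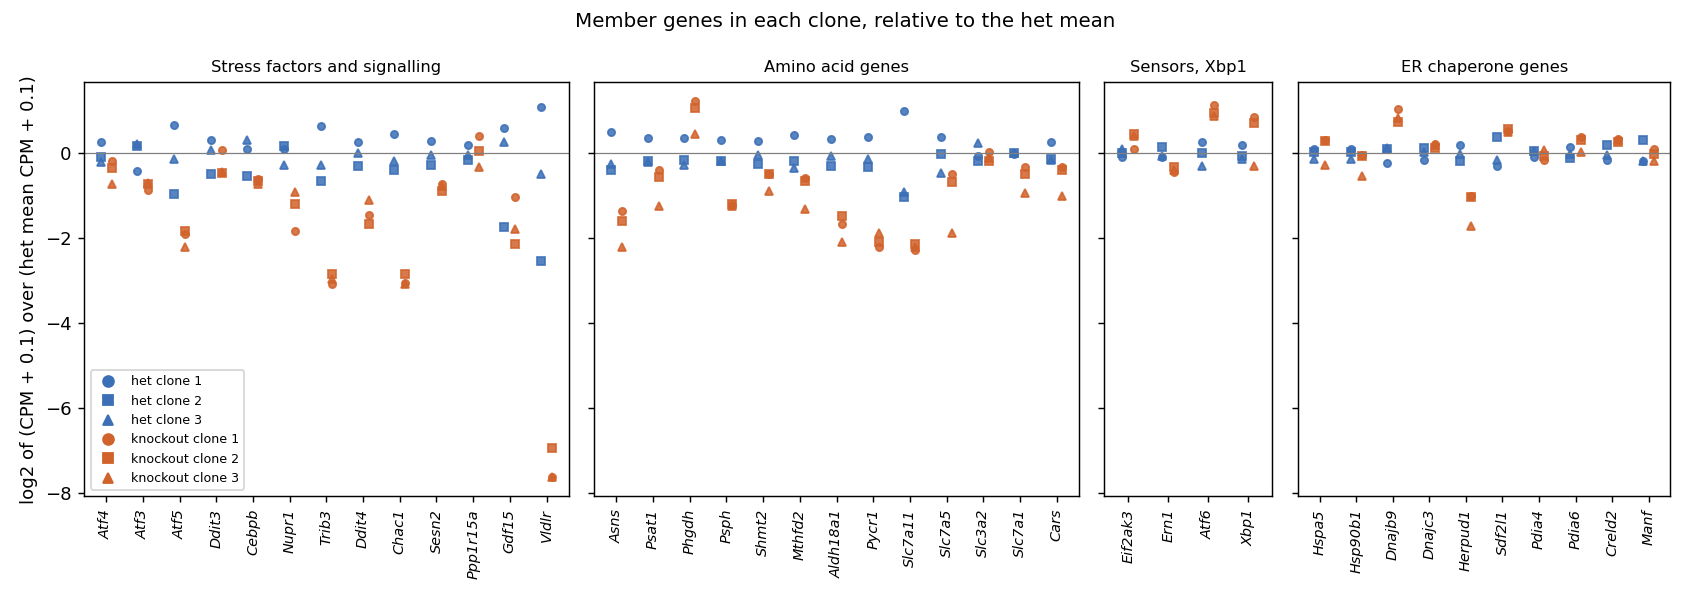
Level of each of the 40 genes in each of the 6 clones as log2 of (CPM + 0.1) divided by (mean het CPM + 0.1), in 4 panels by sub-list; blue marks are het clones and orange marks knockout clones, with the shape giving the clone number. Most knockout marks in the first 2 panels lie below the het marks, by far the most for Vldlr, while in the ER chaperone panel the marks of the genotypes are apart for Herpud1 (knockout lower) and for Dnajb9, Sdf2l1 and Creld2 (knockout higher) and overlap for the other 6 genes.

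At the head of the pathway, the sensors moved in both directions, with 1 gene higher, 1 lower and 2 not passing. Atf6, the ER membrane factor that is cut free under stress, had 109.6, 91.7 and 75.1 CPM in het clones 1, 2 and 3 and 201, 175 and 169 CPM in knockout clones 1, 2 and 3. Each knockout clone was above each het clone, and the gene rose (log2 change 0.98, SE 0.15, adjusted p = 0.00539). Ern1 (IRE1) fell slightly, from 45.2, 53.0 and 46.2 CPM to 35.5, 38.3 and 36.2 CPM (log2 change -0.39, SE 0.10, adjusted p = 0.0312). The clones of Ern1 did not overlap, but the call was lost without any 1 of het clones 2 and 3 and knockout clones 1, 2 and 3 (adjusted p 0.0559 to 0.0975). The call on Ern1 held in only 7 of 15 alternative fits. Eif2ak3 (PERK) had 30.5, 32.7 and 35.2 CPM in the het against 35.2, 44.4 and 43.6 CPM in the knockout clones, short of the threshold (log2 change 0.32, SE 0.13, adjusted p = 0.0972). Xbp1, whose mRNA is the substrate of IRE1, had 39.1, 32.5 and 30.7 CPM in the het against 61.7, 55.7 and 27.6 CPM in the knockout clones (log2 change 0.50, SE 0.29, adjusted p = 0.243). Knockout clone 3 lay below all het clones for Xbp1 while the other knockout clones lay above them, and without knockout clone 3 the gene passed as higher (log2 change 0.78, adjusted p = 0.0135). The spliced form of Xbp1 was not analysed here, so these levels do not show IRE1 activity.

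Atf4 itself had 390.2, 303 and 282 CPM in the het against 287, 253 and 195 CPM in the knockout clones. The ranges overlapped, because knockout clone 1 lay just above het clone 3, and the gene did not pass (log2 change -0.41, SE 0.19, adjusted p = 0.144). Its close relative Atf5, also translated more under stress, had 59.2, 19.1 and 33.7 CPM in the het against 9.89, 10.3 and 8.01 CPM in the knockout clones. Atf5 fell in all knockout clones, with a wide spread among het clones (log2 change -1.99, SE 0.40, adjusted p = 0.0141), and the call was lost without any 1 knockout clone (adjusted p 0.0543 to 0.0602). Atf3, a stress-induced factor that competes for similar DNA sites, had 31.5, 47.2 and 48.8 CPM in the het against 23.3, 25.5 and 26.0 CPM in the knockout clones. Here het clone 1 was the lowest het clone, and the fall (log2 change -0.77, SE 0.18, adjusted p = 0.0203) was lost without het clone 2 or 3 or knockout clone 1 or 2 (adjusted p 0.0648 to 0.0749) and with its neighbourhood median taken out (0.0808; the median change of the 20 tested genes on each side). Ddit3 (CHOP), the factor tied to cell death under lasting stress, was at 52.9, 30.2 and 44.5 CPM in the het against 44.5, 30.5 and 31.3 CPM in the knockout clones, with overlap and no call (log2 change -0.26, SE 0.24, adjusted p = 0.451). Cebpb, a possible partner of ATF4, was at 5.01 ± 1.43 CPM in the het against 3.12 ± 0.119 CPM in the knockout clones, short of the threshold (log2 change -0.68, SE 0.29, adjusted p = 0.128).

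Apart from Vldlr, described below with its few knockout counts, Trib3 and Chac1 had the largest falls among the stress factor and signalling genes. Trib3 (ENSMUSG00000032715, chr2:152337422-152344032 in GRCm38), a pseudokinase made in response to ATF4 and CHOP, had 50.6, 20.6 and 26.6 CPM in the het against 3.79, 4.43 and 4.08 CPM in the knockout clones (log2 change -2.99, SE 0.36, adjusted p = 0.00238). Chac1 (ENSMUSG00000027313, chr2:119351229-119354381), an enzyme that breaks down glutathione, had 34.7, 19.1 and 22.1 CPM in the het against 2.93, 3.44 and 2.90 CPM in the knockout clones (log2 change -3.03, SE 0.27, adjusted p = 0.000809). For both genes the knockout clones lay within a narrow band, and the fitted het level was 7.94-fold the knockout level for Trib3 and 8.18-fold for Chac1. Ddit4 (REDD1) and Sesn2, both of which restrain the growth kinase complex mTORC1, also fell. Ddit4 had 27.3, 18.5 and 22.7 CPM in the het against 8.18, 7.14 and 10.6 CPM in the knockout clones (log2 change -1.40, SE 0.22, adjusted p = 0.00513). Sesn2 had 39.4, 26.9 and 31.4 CPM in the het against 19.5, 17.6 and 19.1 CPM in the knockout clones (log2 change -0.80, SE 0.16, adjusted p = 0.0123), a call lost without knockout clone 2 (adjusted p = 0.0615). Nupr1, a small stress-induced nuclear protein, had 85.9, 90.3 and 67.0 CPM in the het against 22.7, 35.1 and 42.8 CPM in the knockout clones (log2 change -1.27, SE 0.24, adjusted p = 0.0108). Clones did not overlap for Ddit4, Sesn2 or Nupr1.

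Ppp1r15a (GADD34), the phosphatase subunit that reverses eIF2 phosphorylation and is itself turned on by the pathway, had 68.7, 53.8 and 58.9 CPM in the het against 79.4, 62.5 and 48.4 CPM in the knockout clones, with overlapping ranges and no call (log2 change 0.07, SE 0.19, adjusted p = 0.815). Gdf15, a secreted stress signal, was under 1 CPM in every clone, with 30 counts over the het and 7 over the knockout libraries, and was not tested. Vldlr (chr19), a lipoprotein receptor that ATF4 can turn on, had 42.0, 3.32 and 13.9 CPM in the het against 0, 0.0615 and 0 CPM in the knockout clones. That is 983 counts against 1 count, a ratio of pooled CPM of 1013 with an exact 95% interval of 181 to 40041 that covers counting error only. The het clones differed widely among themselves for Vldlr, and it passed (adjusted p = 0.00764) but not without knockout clone 2, the clone with the 1 count (adjusted p = 0.0682).

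**Figure D2:**
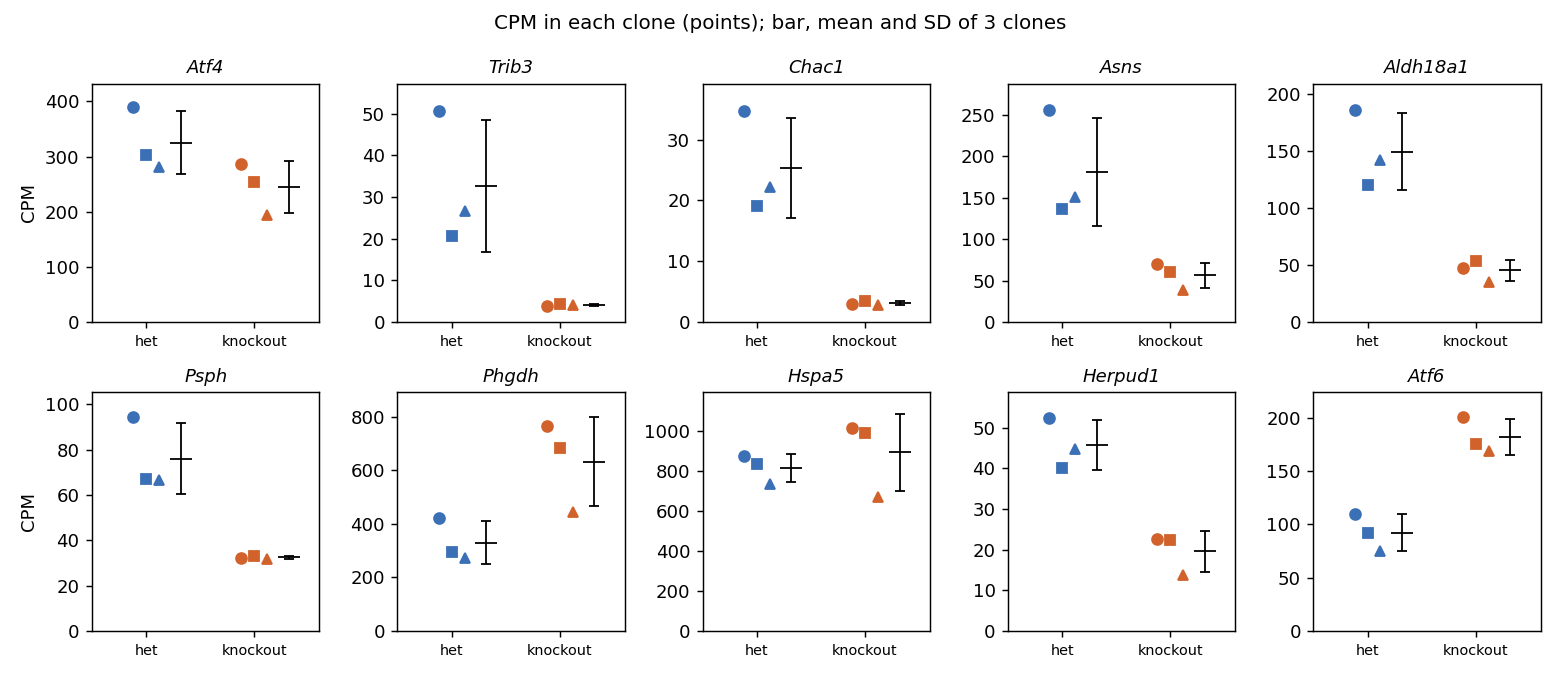
CPM of 10 genes in each clone (points, blue for het and orange for knockout; circle, square and triangle are clones 1, 2 and 3), with a bar for the mean and SD of 3 clones; every axis starts at 0. Trib3, Chac1, Asns, Aldh18a1, Psph and Herpud1 show knockout clones well below all het clones, Phgdh and Atf6 show them above, and the clones overlap for Atf4 and Hspa5.

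Among the amino acid genes, 7 fell, 1 rose and 5 did not pass, and 12 of the 13 fitted changes were below 0. Asns (ENSMUSG00000029752, chr6:7675169-7693254), which makes asparagine and is among the best known ATF4 targets, had 255, 136 and 150.2 CPM in the het against 69.7, 59.8 and 39.2 CPM in the knockout clones. Even the highest knockout clone was well below the lowest het clone (log2 change -1.68, SE 0.31, adjusted p = 0.0105). The proline synthesis enzymes both fell. Aldh18a1 (ENSMUSG00000025007, chr19:40550257-40588463), which catalyses the entry step from glutamate, had 186, 120.0 and 143 CPM in the het against 47.2, 53.8 and 35.2 CPM in the knockout clones (log2 change -1.72, SE 0.22, adjusted p = 0.00271). The 20 tested genes on each side of Aldh18a1 had a median log2 change of 0.62, and with that neighbourhood median taken out its own change was -2.34. Pycr1, which completes proline, had 19.7, 12.1 and 13.9 CPM in the het against 3.24, 3.51 and 4.08 CPM in the knockout clones (log2 change -2.08, SE 0.24, adjusted p = 0.00224). Het clone 1 was the highest het clone for Asns, Aldh18a1 and Pycr1.

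Serine synthesis from glucose runs through Phgdh, Psat1 and Psph in that order, and these genes did not move together. Phgdh (ENSMUSG00000053398, chr3:98313170-98339990), the entry enzyme, had 420.1, 295 and 272 CPM in the het against 765, 684 and 446 CPM in the knockout clones. It was higher in every knockout clone and rose (log2 change 0.94, SE 0.25, adjusted p = 0.0324), a call lost without het clone 2 or 3 or knockout clone 1 or 2 (adjusted p 0.102 to 0.112) and with the neighbourhood median taken out (0.0543). Psat1, the next enzyme, had 592, 406 and 399.6 CPM in the het against 354, 315 and 196 CPM in the knockout clones. Its clones did not overlap, but it did not pass (log2 change -0.69, SE 0.26, adjusted p = 0.0877), although it did in 3 of 15 alternatives (lowest adjusted p = 0.0245, DESeq2). Psph (ENSMUSG00000029446, chr5:129765558-129787449), the last enzyme, had 94.4, 67.1 and 66.7 CPM in the het against 32.3, 33.2 and 31.8 CPM in the knockout clones. The 3 knockout clones were almost equal, and the gene fell (log2 change -1.23, SE 0.15, adjusted p = 0.0027). On the per-length scale of the deposited FPKM, the level of Phgdh was 179 ± 40.9 in het and 373 ± 95.8 in knockout clones (SD, n = 3), that of Psat1 207 ± 45.8 and 127 ± 37.4, and that of Psph 48.1 ± 10.8 and 18.5 ± 0.398. Phgdh and Psat1 were thus at like FPKM in het clones, while Phgdh had the higher mean in knockout clones. Downstream of serine, Shmt2 starts mitochondrial folate one-carbon metabolism and fell, from 340.3, 233 and 271 CPM to 200.2, 199 and 150.3 CPM (log2 change -0.62, SE 0.18, adjusted p = 0.0401), but not when any 1 clone other than het clone 2 was left out (adjusted p 0.0733 to 0.0957) or with the neighbourhood median taken out (0.154). Mthfd2, the next mitochondrial enzyme, had 126 ± 37.7 CPM in the het against 71.1 ± 17.8 CPM in the knockout clones and missed the threshold (log2 change -0.82, SE 0.27, adjusted p = 0.0596), but passed as lower in 5 of 15 alternatives (lowest adjusted p = 0.01, DESeq2).

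The amino acid transporters of the set gave mixed results. Slc7a11, which imports cystine in exchange for glutamate, had 23.2, 5.68 and 6.15 CPM in the het against 2.32, 2.58 and 2.43 CPM in the knockout clones. It fell (log2 change -2.25, SE 0.59, adjusted p = 0.0317), but het clone 1 was several times above the other het clones. Without het clone 1 the log2 change was -1.28, and without any 1 knockout clone the call was lost (adjusted p 0.0873 to 0.109). Slc7a1, which carries arginine and lysine, fell from 219, 222 and 223 CPM to 175, 158 and 115 CPM (log2 change -0.57, SE 0.16, adjusted p = 0.0359). Its call was lost without any 1 het clone or without knockout clone 2 (adjusted p 0.0567 to 0.0969). Slc7a5 (LAT1), which carries large neutral amino acids, had 325, 249 and 179.9 CPM in the het against 179, 157 and 68.3 CPM in the knockout clones, short of the threshold (log2 change -0.90, SE 0.39, adjusted p = 0.132), and it passed as lower in 1 of 15 alternatives (adjusted p = 0.0359, DESeq2). Its partner chain Slc3a2 had 275, 251 and 335 CPM in the het against 293, 253 and 262 CPM in the knockout clones, with overlapping ranges (log2 change -0.09, SE 0.14, adjusted p = 0.65). Cars, which charges the tRNA for cysteine, had 125 ± 21.8 CPM in the het against 85.4 ± 20.5 CPM in the knockout clones, short of the threshold (log2 change -0.55, SE 0.21, adjusted p = 0.0906), and it passed as lower in 5 of 15 alternatives (lowest adjusted p = 0.0313, limma on log2(FPKM + 1)).

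ER chaperone genes stayed close to the het level in most cases. Hspa5 (ENSMUSG00000026864, chr2:34771970-34777547), which encodes BiP, the main ER chaperone and the usual readout of the unfolded protein response, had 873, 833 and 736 CPM in the het against 1013, 989.7 and 671 CPM in the knockout clones. Knockout clones 1 and 2 were above and knockout clone 3 was below all het clones, and the gene did not pass (log2 change 0.13, SE 0.19, adjusted p = 0.64). Hsp90b1 (GRP94), the ER form of HSP90, had 894, 857 and 762 CPM in the het against 811, 791 and 575 CPM in the knockout clones (log2 change -0.21, SE 0.17, adjusted p = 0.395). A further 6 genes did not pass: the log2 changes were 0.17, adjusted p = 0.244 for Dnajc3, a BiP cochaperone, 0.53, adjusted p = 0.0941 for Sdf2l1, another BiP partner, -0.05, adjusted p = 0.718 for Pdia4 and 0.24, adjusted p = 0.201 for Pdia6, both disulfide isomerases, 0.30, adjusted p = 0.0956 for Creld2, and -0.03, adjusted p = 0.904 for the secreted ER stress factor Manf. Sdf2l1 passed as higher without het clone 2 (log2 change 0.75, adjusted p = 0.0305) and in both limma fits on FPKM (adjusted p 0.0420 and 0.0438). An adjusted p above the threshold does not show that these genes were equal in the genotypes.

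The exceptions in the ER sub-list were Dnajb9 and Herpud1, which moved in opposite directions. Dnajb9 (ERdj4), a BiP cochaperone that dampens IRE1, had 5.63, 7.14 and 7.15 CPM in the het against 13.7, 11.1 and 11.7 CPM in the knockout clones (log2 change 0.87, SE 0.19, adjusted p = 0.0162). Its knockout clones were all higher, but the call was lost without knockout clone 1 or 2 (adjusted p 0.0674 and 0.0568), and with the median of its neighbourhood on chromosome 12 (0.39) taken out the adjusted p was 0.106. Herpud1 (ENSMUSG00000031770, chr8:94386438-94395377), an ER membrane protein of ER-associated degradation, had 52.4, 40.2 and 44.8 CPM in the het against 22.5, 22.4 and 13.8 CPM in the knockout clones. Each knockout clone was well below each het clone, and the gene fell (log2 change -1.23, SE 0.21, adjusted p = 0.00757), while its most abundant transcript alone did not pass (adjusted p = 0.127).

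Promoter sequence was compared across the sub-lists because the amino acid and chaperone outputs are known to use different elements. The C/EBP-ATF element, TGATGNAA on either strand, is bound by ATF4 with a C/EBP partner, and the ER stress element (CCAAT, 9 bases, CCACG) is bound by ATF6 with NF-Y. RefSeq windows from 250 bases before to 50 bases after the start site (GRCm38.p6) were found for 36 of the 40 genes. Slc7a5, Cars, Atf6 and Manf had no window and were not searched. TGATGNAA was in 4 of 13 windows of the stress factors and signalling genes, 3 of 11 of the amino acid genes and 1 of 9 of the ER chaperone genes. It was in none of the 3 windows of Eif2ak3, Ern1 and Xbp1. Over all 32544 windows the share was 3.91%. The stretches follow, written 5′ to 3′ in the direction of the element, with the element in capitals.
Trib3 (chr2:152344028-152344057, plus strand): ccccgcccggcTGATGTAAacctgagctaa
Chac1 (chr2:119351029-119351076, minus strand): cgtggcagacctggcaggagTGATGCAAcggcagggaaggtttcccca
Atf3 (chr1:191183416-191183463, plus strand): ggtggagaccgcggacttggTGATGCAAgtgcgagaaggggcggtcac
Nupr1 (chr7:126625562-126625591, plus strand): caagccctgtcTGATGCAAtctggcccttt
Asns (chr6:7693214-7693243, minus strand): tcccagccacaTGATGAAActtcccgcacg
Pycr1 (chr11:120643824-120643871, minus strand): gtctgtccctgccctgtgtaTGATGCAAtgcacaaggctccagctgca
Slc7a11 (chr3:50443652-50443699, minus strand): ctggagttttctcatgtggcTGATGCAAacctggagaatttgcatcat
Herpud1 (chr8:94386297-94386344, minus strand): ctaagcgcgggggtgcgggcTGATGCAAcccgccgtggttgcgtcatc

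The element began between 193 and 23 bases before the start site in 7 of these windows, and 14 bases after it in Trib3. Slc7a11 held a further copy on the opposite strand, 47 to 40 bases before the start. All 8 genes whose window held TGATGNAA were lower in knockout clones, with a median log2 change of -1.88. Of the 27 tested genes of the set whose window lacked it, 9 were lower and 2 higher, with a median of -0.26. Those 9 include Aldh18a1 and Psph. Over all tested genes with a window matched by symbol, 27.6% of the 203 that held TGATGNAA were lower and 11.8% higher, against 13.6% lower and 14.5% higher of the 9221 that lacked it. A match describes the letters and not a bound site.

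The ER stress element was in 5 of 9 chaperone windows and in no window of the other sub-lists, against 0.120% of all windows. These stretches are shown because none of the 5 genes passed the test, and they are written in the same way with the whole element, including its 9-base spacer, in capitals. Hsp90b1 held it on both strands, and the copy on its own strand is given.
Hspa5 (chr2:34772020-34772048, plus strand): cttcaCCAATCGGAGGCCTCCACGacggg
Hsp90b1 (chr10:86705618-86705676, minus strand): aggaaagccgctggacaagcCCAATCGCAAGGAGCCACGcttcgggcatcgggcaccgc
Dnajc3 (chr14:118937807-118937865, plus strand): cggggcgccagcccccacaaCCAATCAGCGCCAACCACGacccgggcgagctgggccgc
Pdia6 (chr12:17266471-17266529, plus strand): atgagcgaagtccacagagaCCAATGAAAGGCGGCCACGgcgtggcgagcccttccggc
Creld2 (chr15:88819500-88819558, minus strand): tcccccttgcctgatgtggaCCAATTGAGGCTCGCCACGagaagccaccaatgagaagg
Herpud1, element II (chr8:94386357-94386407, plus strand): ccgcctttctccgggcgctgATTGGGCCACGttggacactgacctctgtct

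Of the 5 genes with the ER stress element, 0 passed in either direction by edgeR or by any of the 15 alternatives, and 1, Creld2, had an unadjusted p under 0.05 (0.0360). Their median log2 change was 0.17. Over all tested genes with a window matched by symbol, 2 of 13 that held the ER stress element were lower (15.4%) and 0 higher. Of the 9411 that lacked it, 13.9% were lower and 14.4% higher. With 28.2% of all genes passing in either direction, a count of 0 among 5 genes is too small to set these genes apart. Herpud1 was the 1 gene of the set with the related ER stress element II (ATTGG, 1 base, CCACG; 0.0369% of all windows) and also the 1 chaperone gene with TGATGNAA, the elements lying 112 to 105 and 52 to 42 bases before its start. It was the 1 chaperone gene that fell. The unfolded protein response element TGACGTGG was in no window of the set and in 0.682% of all windows.

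A further 136 genes of the same pathways, in 12 lists chosen by function, show how far the pattern reached. Of these, 129 were tested, and 18 (14.0%) were higher and 26 (20.2%) lower, with a median log2 change of -0.09, against the 13.9% higher and 14.3% lower of all genes tested. The share of higher genes was thus near that of all genes. Of the 26 lower genes, 22 were in the ATF4 target, ATF4-responsive synthetase, one-carbon and transporter lists. Among other ATF4 target genes, 7 of 12 tested were lower (58.3%) and 1 higher (median -0.86). Stc2, a secreted glycoprotein, and Adm2, a peptide hormone, averaged 12.7 ± 3.45 and 7.79 ± 1.99 CPM in het clones (SD, n = 3) and had 0 counts in all knockout clones. These 2 genes passed the filter on low counts through their het libraries alone, and without them 5 of 10 were lower (median -0.85). Against a floor of 3 counts over the group, Stc2 was at least 220-fold and Adm2 at least 134-fold lower. Named after their values were seen, Cth, Gpt2 and Pck2, enzymes of cysteine, alanine and phosphoenolpyruvate synthesis, fell as well, by 2.55, 2.32 and 2.16 on the log2 scale (adjusted p = 0.00208, 0.00291 and 0.00311).

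Amino acid transporters outside the set had the lowest median of the lists, -1.94, with 6 of 9 tested lower (66.7%). Without Slc7a2, which passed the filter through its het libraries alone, 5 of 8 were lower (median -1.51). Slc1a4, which carries alanine and serine, fell from 50.2 ± 6.42 CPM to 13.1 ± 0.434 CPM (log2 change -1.94, SE 0.13, adjusted p = 0.000249). Slc7a2, which carries cationic amino acids, fell from 48.0 ± 17.4 CPM to 0.488 ± 0.110 CPM (log2 change -6.61, SE 0.38, adjusted p = 0.000139). In the one-carbon and serine list, 4 of 9 were lower (44.4%) and 1 higher (median -0.29). Aldh1l2, which releases carbon dioxide from mitochondrial formyl-folate, had 230.5, 116 and 155 CPM in the het against 0.672, 0.677 and 1.19 CPM in the knockout clones (log2 change -7.60, SE 0.39, adjusted p = 8.86e-05). Mthfd1l, which releases formate from mitochondria, fell from 128 ± 38.0 CPM to 46.8 ± 12.7 CPM (log2 change -1.45, SE 0.28, adjusted p = 0.0115). With the neighbourhood median taken out, the change of Mthfd1l was -0.85 (adjusted p = 0.0675). Aldh1l2 and Slc7a2 were near or under 1 CPM in every knockout clone.

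The cytosolic tRNA synthetases were divided into those known to respond to ATF4 and the rest. Of 11 ATF4-responsive synthetases, 5 were lower (45.5%), and 10 had fitted changes below 0 (median -0.43). Lars, for leucine, fell from 301 ± 79.6 CPM to 147 ± 41.2 CPM (log2 change -1.03, SE 0.27, adjusted p = 0.0306), and Aars, for alanine, from 562 ± 75.2 CPM to 362 ± 61.7 CPM (log2 change -0.64, SE 0.17, adjusted p = 0.0329). Of the 8 remaining synthetases only Dars, for aspartate, passed, and it was higher (log2 change 0.63, SE 0.11, adjusted p = 0.00783). Their median was 0.16. TGATGNAA was in 5 of 8 windows of the first list (Aars, Gars, Yars, Iars and Tars) and 0 of 5 of the second. Lars, with the largest fall of the first list, was not among the genes found with it. The comparison was by list only, and the other ATF4-linked lists held the element in smaller shares of their windows. The element was in 3 of 11 windows of the other ATF4 targets, 1 of 6 of the transporters and 0 of 7 of the one-carbon list. The falls of Lars and Aars were small, and both were lost without het clone 3, knockout clone 1 or knockout clone 2 (adjusted p 0.0586 to 0.0898). That of Aars was also lost without het clone 1 (0.0675) and with the neighbourhood median taken out (0.0653).

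On the ER side, the 4 lists together had 7 higher (14.9%) and 3 lower (6.38%) of 47 tested, against 13.9% and 14.3% of all genes, so the share of higher genes was near that of all genes. ER chaperones and folding enzymes outside the set had 3 higher and 1 lower of 15 (median 0.00). Fkbp11, an ER proline isomerase of secretory cells, fell (log2 change -1.49, SE 0.15, adjusted p = 0.00125), and Ero1lb, an ER oxidase, rose (log2 change 0.80, SE 0.21, adjusted p = 0.0291). ER-associated degradation had 3 higher of 13 (23.1%; median 0.24), with Edem3 (log2 change 0.48, SE 0.10, adjusted p = 0.0146) and Edem2 (log2 change 0.52, SE 0.13, adjusted p = 0.0262), which trim sugars on misfolded proteins, named. ER-bound transcription factors and their proteases had 1 higher and 1 lower of 7. Atf6b, the paralog of Atf6, rose (log2 change 0.60, SE 0.09, adjusted p = 0.00543), and Creb3l1, a related ER-bound factor that drives collagen secretion genes, fell from 8.15 ± 2.76 CPM to 1.54 ± 0.231 CPM (log2 change -2.39, SE 0.33, adjusted p = 0.00365). ER translocation and COPII transport had 1 lower of 12, the COPII coat gene Sec24d (log2 change -0.71, SE 0.17, adjusted p = 0.0205). The calls on Ero1lb, Edem2, Edem3 and Sec24d were lost when certain single clones were left out, knockout clone 2 among them in each case (adjusted p 0.123, 0.0823, 0.0631 and 0.0501 without it).

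The remaining lists were the upstream machinery and the chaperones of other compartments. Over all genes tested, 13.9% were higher and 14.3% lower. Among eIF2 kinases, eIF2 and eIF2B subunits, 2 were higher (16.7%, near that share) and 1 lower of 12 (median 0.03). The higher genes were Eif2b2 (log2 change 0.67, SE 0.08, adjusted p = 0.00263) and Eif2s1 (log2 change 0.66, SE 0.15, adjusted p = 0.0189), both on chromosome 12, and with the median of their neighbours taken out their adjusted p was 0.2 and 0.296. Cytosolic heat shock genes had 3 higher of 13 (23.1%; median 0.18), led by the cochaperone Bag3, at 67.1, 66.6 and 63.3 CPM in the het against 114, 116 and 117 CPM in the knockout clones (log2 change 0.82, SE 0.08, adjusted p = 0.0012), with the factor Hsf2 (log2 change 0.40, SE 0.10, adjusted p = 0.0308). Mitochondrial chaperones and proteases had 3 higher of 8 (37.5%; median -0.06), with the protease Yme1l1 (log2 change 0.79, SE 0.10, adjusted p = 0.00314) and the cochaperone Dnaja3 (log2 change 0.46, SE 0.10, adjusted p = 0.0145) named, whose adjusted p was 0.174 and 0.197 with the neighbourhood median taken out. Leaving out single clones ended the calls on Eif2s1 (het clone 2 or 3, knockout clone 1 or 2; adjusted p 0.0571 to 0.072), Dnaja3 (knockout clone 1 or 2; 0.0596 and 0.063) and Hsf2 (any clone but knockout clone 3; 0.0533 to 0.1).

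**Figure D3:**
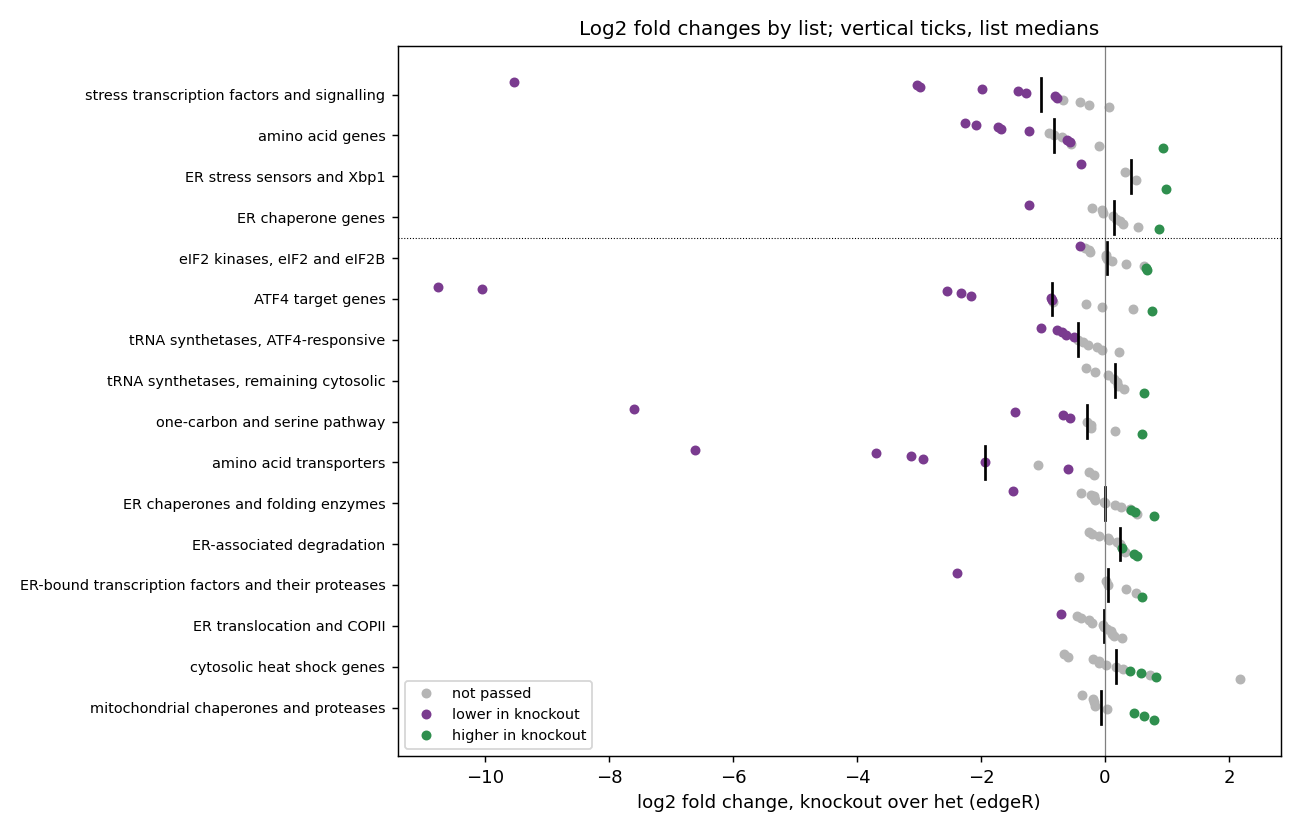
Log2 fold change (knockout over het, edgeR) of every tested gene in the 4 sub-lists of the set (above the dotted line) and 12 further lists, coloured by call, with a black tick at each list's median. Medians run from -1.94 for amino acid transporters to 0.41 for the ER stress sensors with Xbp1, and the lists of ATF4-linked amino acid genes have their ticks left of 0.

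Clones of 1 genotype also differed from one another. Het clone 1 was the highest het clone for 9 of 12 tested stress factor and signalling genes, 11 of 13 amino acid genes, 10 of 12 other ATF4 targets and 11 of 11 ATF4-responsive synthetases, but for 4 of 10 ER chaperone genes. Among further lists it was highest for 3 of 9 transporters, 4 of 9 one-carbon genes and 5 of 8 remaining synthetases. That also held for 7 of 13 cytosolic heat shock genes and 5 of 8 mitochondrial chaperones and proteases. The share over all genes was not counted. Knockout clone 3 was the lowest knockout clone for 10 of 13 amino acid genes and 10 of 11 ATF4-responsive synthetases, and also for 8 of 8 remaining synthetases and 6 of 10 ER chaperone genes. It was lowest too for 12 of 15 ER chaperones and folding enzymes, 9 of 12 ER translocation and COPII genes and 7 of 8 mitochondrial chaperones and proteases. For other ATF4 targets that was 7 of 12, for stress factor and signalling genes 5 of 12 and for transporters 3 of 9. For the amino acid genes the median log2 ratio to the het mean was 0.35, -0.19 and -0.19 in het clones 1, 2 and 3 and -0.49, -0.66 and -1.25 in knockout clones 1, 2 and 3. All knockout medians lay below all het medians, and the gap between the nearest clones of different genotype was smaller than the range within either. For the ER chaperone genes the medians were -0.13, 0.07 and -0.04 in het and 0.26, 0.19 and 0.05 in knockout clones, and they overlapped. Without het clone 1 the median log2 change of the amino acid genes was -0.58 and 15 genes of the set were lower, and without knockout clone 3 the median was -0.59 and 13 were lower.

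**Figure D4:**
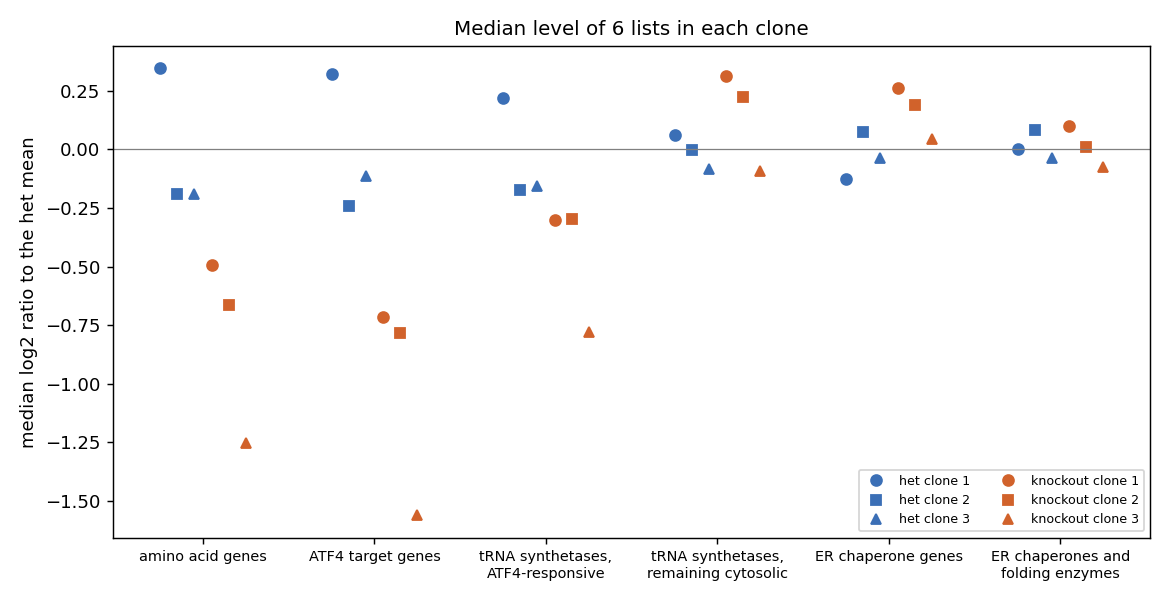
Median over the genes of 6 lists of the log2 ratio to the het mean, in each clone (blue, het; orange, knockout; shape, clone number). Knockout clone 3 is the lowest knockout clone in all 6 lists. Het clone 1 is the highest het clone in the first 3 lists and also for the remaining synthetases. In the first 3 lists all knockout clones lie below all het clones.

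Levels per length place these genes on a common scale. Of the 37 genes with deposited FPKM values, Hspa5 had the highest mean in both genotypes, at 348 ± 22.9 FPKM in het and 391 ± 83.0 FPKM in knockout clones. Atf4 was also abundant, at 190.3 ± 30.9 FPKM in het and 147 ± 27.3 FPKM in knockout clones. Asns fell from 91.9 ± 31.4 to 29.0 ± 7.89 FPKM, while Trib3 and Chac1 were low even in het clones, at 15.9 ± 7.68 and 15.6 ± 4.90 FPKM, and reached 2.07 ± 0.152 and 1.95 ± 0.171 FPKM in knockout clones. Per length, Trib3 and Chac1 were thus well below Hspa5 and Atf4 in clones of both genotypes.

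Counts had been estimated per transcript, so single transcripts of the set could be tested. Of 98 transcripts of 39 genes, 2 were higher and 15 lower by edgeR, against 7.94% of all 34655 transcripts called in either direction. The share over all transcripts was not divided by direction. The lower transcripts came from 12 genes. They include Asns-202 and Vldlr-207, with 0 and 1 counts over the knockout libraries. These passed the filter on low counts through their het libraries alone, and the count without such transcripts was not made. Asns-202, a minor form, had 8.11, 3.91 and 3.61 CPM in het clones and 0 in all knockout clones, at least 92.7-fold lower against a floor of 3 counts over the group. Asns-201, the main form, had 237, 129 and 145 CPM in het and 73.3, 60.4 and 40.1 CPM in knockout clones, so the fall of Asns was not limited to the minor form. In the authors' deposited table, 79 transcripts of 37 of the genes were listed. At an adjusted p under 0.05, 3 were higher and 22 lower there, with Asns-202 among the lower. Of all transcripts listed there, 14.0% passed in either direction. The authors' deposited table gives Chac1-201 a log2 change of -3.00, Trib3-201 -2.94 and Atf6-201 1.02. Of the same 79 transcripts, the edgeR test run here on the counts called 15.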

How the data were processed

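Poly(A) RNA of 6 clones, 3 het and 3 knockout for Macf1, was read with a stranded kit, per the labels' protocols. The submitters' processing notes name Trimmomatic 0.36, kallisto 0.42.5, edgeR and GRCm38.p4. The authors deposited estimated counts and FPKM values per transcript, and a table of log2 fold changes and adjusted p-values per transcript. The depth was 15661342 to 18209673 estimated counts a library.

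Counts were summed per gene and rounded. The gene was that of the authors' deposited table for transcripts listed there and that of GENCODE M21 for the others. For 57 transcripts the deposited table gave another gene ID than GENCODE. Transcripts without a gene held 0.0174% to 0.0278% of the counts and were left out. Estimation divides reads shared by near-identical genes, so such genes and single transcripts are uncertain. Genes passing filterByExpr (count minimum 10, total minimum 15) were scaled with TMM and tested in edgeR 4.0.16 (R 4.3.3; robust quasi-likelihood, two-sided, Benjamini-Hochberg over 12732 genes). CPM use TMM-scaled library sizes. The procedure was tested on simulated data.

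The 40 genes, the lists and the motifs were chosen with earlier results of these data known. All 40 are named. From each other list the up to 2 passing genes with the smallest adjusted p are named, and others are marked. Promoter windows are RefSeq's (GRCm38.p6), the first listed for each gene. Alternatives used DESeq2 1.42.0, limma 3.58.1 (voom, and log2 of FPKM + 1 or + 0.1), RLE, library totals, other filters, local chromosome medians as an offset, and each clone left out.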

Additional observations from a re-analysis of the deposited data

How the results depend on the processing

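Of the 20 genes of the set that passed, 20 kept their direction and 10 kept their call in all 15 alternatives: Nupr1, Trib3, Ddit4, Chac1, Asns, Psph, Aldh18a1, Pycr1, Atf6 and Herpud1. Of these 10, 9 also passed by their most abundant transcript alone, and Herpud1 did not. Of the 19 that did not pass, 6 passed in at least 1 alternative (Psat1, Mthfd2, Slc7a5, Cars, Xbp1 and Sdf2l1). Calls over all genes went from 3585 to between 1553 and 2422 without het clone 2 or 3 or knockout clone 1 or 2, but to 3825 without het clone 1 and 3602 without knockout clone 3. With the local chromosome median taken out, 1 gene of the set was higher in place of 3, and 11 of the other pathway genes in place of 18. The median of the ER chaperone genes turned from 0.15 to -0.021, and Hspa5 to -0.20. On log2(FPKM + 1) and log2(FPKM + 0.1) the stress factor median was -0.70 and -0.74 in place of -1.04, and Manf was 0.015 and 0.016. Vldlr had no FPKM value, and without Vldlr the edgeR median was -0.80. Over the 6 fits that each left out 1 clone, genes of the set called higher ran from 1 to 4 and lower from 9 to 15. Other pathway genes called higher ran from 5 to 20 and lower from 16 to 24, and the stress factor median from -1.49 to -1.06. In the same fits Manf ran from -0.12 to 0.15, Ppp1r15a from -0.13 to 0.22 and Slc3a2 from -0.19 to 0.034, none of them passing. For the most abundant transcript alone, Slc3a2 was 0.24 and Pdia4 0.018. Ern1 missed the threshold without a filter on low counts (adjusted p = 0.0577), as Vldlr and Slc7a11 did with limma-voom (0.0593 and 0.0877). Of the set's listed transcripts, 25 passed in the authors' deposited table and 15 in the edgeR fit. The cause of these differences was not tested. No paired analysis was possible because the labels give the clones no shared replicate numbers.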
